A study of Homo sapiens with 17 samples.

Results

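TRNF, TRNV, and TRNL1 are the 3 tRNA genes that border the rRNA genes of the human mitochondrial genome. They were chosen by position, as the tRNA genes next to RNR1 and RNR2, and make up 3 of the 22 tRNA genes and 3 of the 37 genes in the deposited annotation. The study measured mitochondrial double-stranded RNA in non–small cell lung carcinoma (NSCLC) lines. RNA of H1437, H23, and PC9 cells was captured with J2, an antibody against double-stranded RNA, tailed with poly(A) in vitro, and sequenced as long nanopore reads, giving 17 libraries. The libraries comprised 9 from untreated cells (3 per line), 3 pairs with and without IMT1 (1 pair per line), and 1 pair of H23 cells with and without ADAR1 KD (knockdown). IMT1 is an inhibitor of POLRMT, the mitochondrial RNA polymerase, and ADAR1 is an enzyme that converts adenosine to inosine in double-stranded RNA. The study's text describes the knockdown as made by siRNA, with a nontargeting siRNA in the control. The labels give no dose or time, and the controls of the IMT1 and ADAR1 pairs are labelled by replicate number only and were taken as controls from the names of their alignments. No library of RNA before J2 capture was used here, so every level below is a level among captured RNA, and fewer cells, less RNA per cell, and weaker capture cannot be told apart.

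Mitochondrial DNA is transcribed as long RNAs that run through many genes, and most coding and rRNA genes in them are separated by tRNAs. The tRNAs are cut out at their 5′ ends by mitochondrial RNase P and at their 3′ ends by ELAC2, which also frees the neighboring rRNAs and mRNAs. TRNF encodes the phenylalanine tRNA, the first gene after the noncoding D-loop. TRNV encodes the valine tRNA, which is also found as a structural RNA of the human mitochondrial ribosome. TRNL1 encodes the leucine tRNA that reads UUR codons and holds a binding site of the transcription termination factor MTERF1. A partially processed precursor that keeps RNR2, TRNL1, and ND1 together is known from human cells.

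In the coordinates of the revised Cambridge reference sequence, which the annotation uses, TRNF spans bases 577 to 647 of the mitochondrial genome (71 bases) and RNR1, the 12S rRNA, bases 648 to 1601. TRNV spans bases 1602 to 1670 (69 bases), RNR2, the 16S rRNA, bases 1671 to 3229, and TRNL1 bases 3230 to 3304 (75 bases). All 5 genes are annotated on the + strand, and each touches the next with no base between. Upstream of TRNF lies the noncoding D-loop, and ND1, a subunit gene of complex I, begins at base 3307, after a gap of 2 bases behind TRNL1. The sequences of the 3 tRNA genes were not in the references used here and are not shown.

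The deposited table counts reads on 3 kinds of row for each tRNA interval, a gene row, an exon row, and a tRNA row. In 17 of 17 libraries, each gene row held at most as many reads as its exon row, and each exon row at most as many as its tRNA row. From this nesting, a gene-row read was taken as one that covers the tRNA alone, since a read that also covers at least 6 bases of another gene is not on a gene row. The reads on the exon row but not on the gene row were taken as covering the tRNA and a coding sequence. The reads on the tRNA row but not on the exon row were taken as covering the tRNA and an rRNA, with or without a coding sequence. The exon rows were brought in after the data had been seen. The counts of the neighbors fit this reading, in that the TRNL1 reads with an rRNA never exceeded the RNR2 reads with a tRNA, and the TRNF reads with an rRNA never exceeded the RNR1 reads with a tRNA (17 of 17 libraries each). For TRNF, gene-row and exon-row counts were equal in 17 of 17 libraries. For TRNV they were equal in 16 of 17 and differed by 1 read in H1437 replicate 1. Not all counts fit this reading. For the 6 tRNA genes that border neither a coding nor an rRNA gene, it expects equal gene and tRNA rows. Only 3 of these genes had equal rows in all libraries. The lowest gene-row share in an untreated library was 0% for TRNQ and for TRNS2, and the cause was not tested. Among the other 19 tRNA genes, at most 2.53% of the tRNA-row reads of any gene, summed over the libraries, lay outside its exon row. A read that covers 2 tRNAs is on no tRNA row, and a TRNF read that runs into the D-loop is still a gene-row read. Strand was not separated in these counts.

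The libraries held between 37113 and 6295486 total reads (median 547501), of which 1.14% to 47.2% mapped to the mitochondrial genome. Replicate 1 of H1437 and replicate 1 of PC9 stood apart, with 18 and 20 of the 22 tRNA gene rows at 0 and only 3.10% and 3.76% of their tRNA-row reads on gene rows. In the ADAR1 KD library 11 of the 22 were at 0 and the share was 10.7%, whereas the other 14 libraries had shares of 21.8% to 79.0%. Tests between lines and within libraries were repeated without replicate 1 of all 3 lines, where the 6 remaining libraries cannot give an exact P of F below 0.0667. The labels do not say that replicates are separate cultures, whereas the study's text describes the 3 per line as independent experiments. The P values measure only the spread between these libraries.

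Of the 3 tRNA rows, that of TRNL1 held the most reads, and these mostly extended into a neighboring gene. Most reads on TRNF covered no other gene, and TRNV lay between. By gene rows the order of the medians was the reverse. Over the 9 untreated libraries they were 236 reads per 1000000 total reads for TRNF, 159 for TRNV, and 37.9 for TRNL1. On tRNA rows, the H1437 libraries held 4659, 4826, and 2259 TRNL1 reads per 1000000 total reads of the library (RPM) in replicates 1, 2, and 3. In H23 there were 2502, 13405, and 10724 RPM, and in PC9 2923, 7638, and 1978 RPM. The highest values were those of H23 replicates 2 and 3, but H23 replicate 1 lay within the range of both other lines. TRNL1 was the highest of the 22 tRNA rows in 9 of 17 libraries.

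TRNV tRNA-row reads stood at 185, 398, and 2105 RPM in H1437. They stood at 850, 1361, and 1082 in H23, and 132, 508, and 722 in PC9. All 3 H23 libraries lay above all 3 PC9 libraries, but H1437 replicate 3 lay above them all. TRNF tRNA-row reads stood at 13.5, 396, and 527 RPM in H1437. They were at 303, 788, and 402 in H23, and 7.98, 248, and 444 in PC9. The lowest TRNF and TRNV values of H1437 and of PC9 were those of replicate 1, with 85 and 4 reads on TRNF, whereas TRNL1 had 29331 and 1465 reads in the same libraries.

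**Figure D1:**
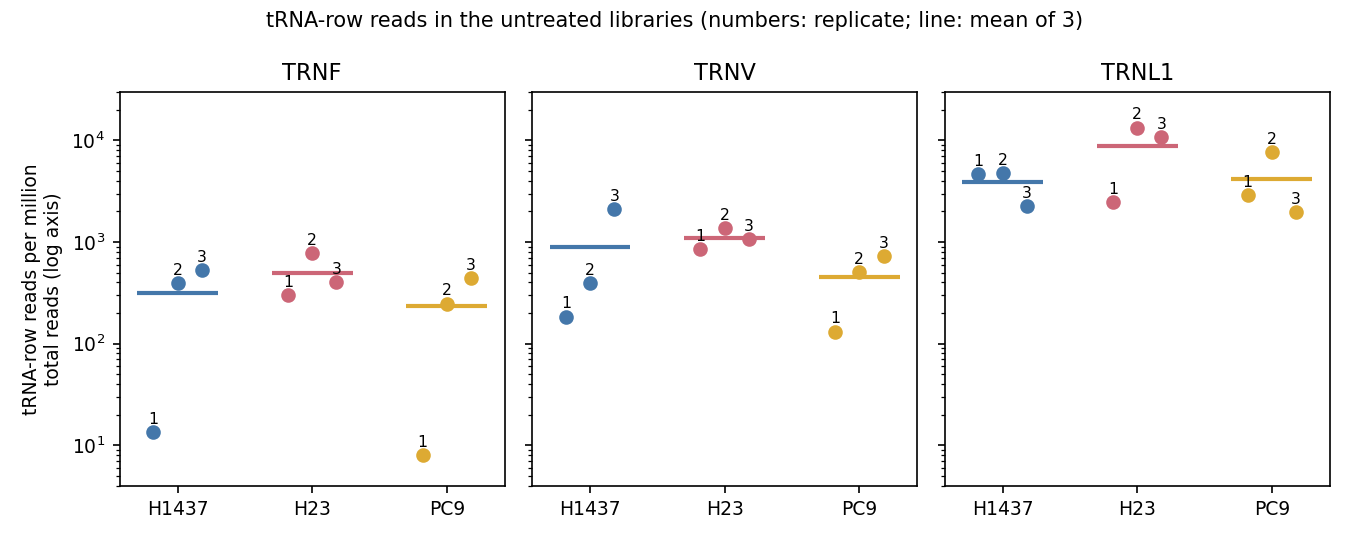
tRNA-row reads of TRNF, TRNV, and TRNL1 per 1000000 total reads (log axis) in the 9 untreated libraries. Points are libraries numbered by replicate and horizontal lines are the means of 3. Replicate 1 of H1437 (13.5) and of PC9 (7.98) lies far below the rest for TRNF and within the range of the other libraries for TRNL1.

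Per base of gene length, the median over the 9 untreated libraries was 62.1 RPM for TRNL1, 10.5 for TRNV, and 5.58 for TRNF. TRNL1 ranked 1, TRNV 5, and TRNF 9 among the 22 tRNA rows, of which TRNL2 was the lowest with 0.508. The order TRNV above TRNF held in 17 of 17 libraries, and TRNL1 was above both in 16 of 17. The exception was H1437 replicate 3, where TRNV was higher than TRNL1 per base. In an exact two-sided sign-flip test over the 9 untreated libraries, TRNV exceeded TRNF in 9 of 9 libraries (adjusted P = 0.0125), TRNL1 exceeded TRNF in 9 of 9 (adjusted P = 0.0125), and TRNL1 exceeded TRNV in 8 of 9 (adjusted P = 0.0223). These values were adjusted over all pairs of the 22 tRNA genes, of which 48.9% passed, so that a difference of this kind was common among tRNA pairs. Without replicate 1 of the 3 lines no pair passed, and the adjusted P values were 0.0622, 0.0622, and 0.112, where 6 libraries cannot give an unadjusted P below 0.0313. No pair passed either when any 1 cell line was left out.

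The share of tRNA-row reads that were on the gene row, taken as covering the tRNA alone, separated the 3 genes. TRNV and TRNL1 have a gene on both sides, whereas TRNF has the D-loop upstream. TRNF reads that run into the D-loop stay in its share, and how much this adds to it was not tested. For TRNF this share was 10.6%, 92.3%, and 93.3% in H1437, 67.6%, 95.1%, and 58.8% in H23, and 0%, 80.9%, and 94.7% in PC9. Outside replicate 1 of H1437 and PC9 it was at least 58.8% in every untreated library. For TRNV it was 0%, 40.0%, and 87.1% in H1437, 36.5%, 73.4%, and 10.9% in H23, and 0%, 26.3%, and 76.4% in PC9. The TRNV values thus spread widely within each line. For TRNL1 it was 0%, 0.786%, and 5.55% in H1437, 12.4%, 3.19%, and 2.00% in H23, and 0%, 0.454%, and 1.89% in PC9. No untreated library had more than 12.4% of its TRNL1 reads on the tRNA alone (95% Wilson interval in that library, 9.18% to 16.6%).

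The share was higher for TRNF than for TRNV in 8 of 9 untreated libraries, on average by 27.0 percentage points. It was higher for TRNF than for TRNL1 in 8 of 9, by 63.0 points, and higher for TRNV than for TRNL1 in 7 of 9, by 36.0 points. The adjusted P of the exact sign-flip test was 0.025 for each of these 3 differences over 136 pairs of tRNA genes, of which 72.1% passed. Without replicate 1 of the 3 lines, each of the 3 differences held in 6 of 6 libraries, by 33.5, 83.5, and 50 points, with an adjusted P of 0.0422 over the 216 pairs that could then be tested, of which 160 passed. When any 1 cell line was left out, the 3 differences kept their direction but none passed (adjusted P = 0.0907 without H1437, 0.162 without H23, and 0.0916 without PC9). Where both shares of a library were 0%, the smallest P that the sign-flip test can give rises above the threshold. This was so for all 3 differences without H1437 or without H23 (unadjusted P = 0.0625 to 0.125). It was also so for TRNV against TRNL1 without PC9 (0.0625), so these tests could not pass. Over all 17 libraries, TRNF was above TRNV in 15 and TRNV above TRNL1 in 14. Among the 16 tRNA genes that border a coding or rRNA gene, TRNL1 had the second-lowest median share (1.89%), after TRNG (0.830%), and TRNF the second-highest (80.9%), after TRNH (83.1%).

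**Figure D2:**
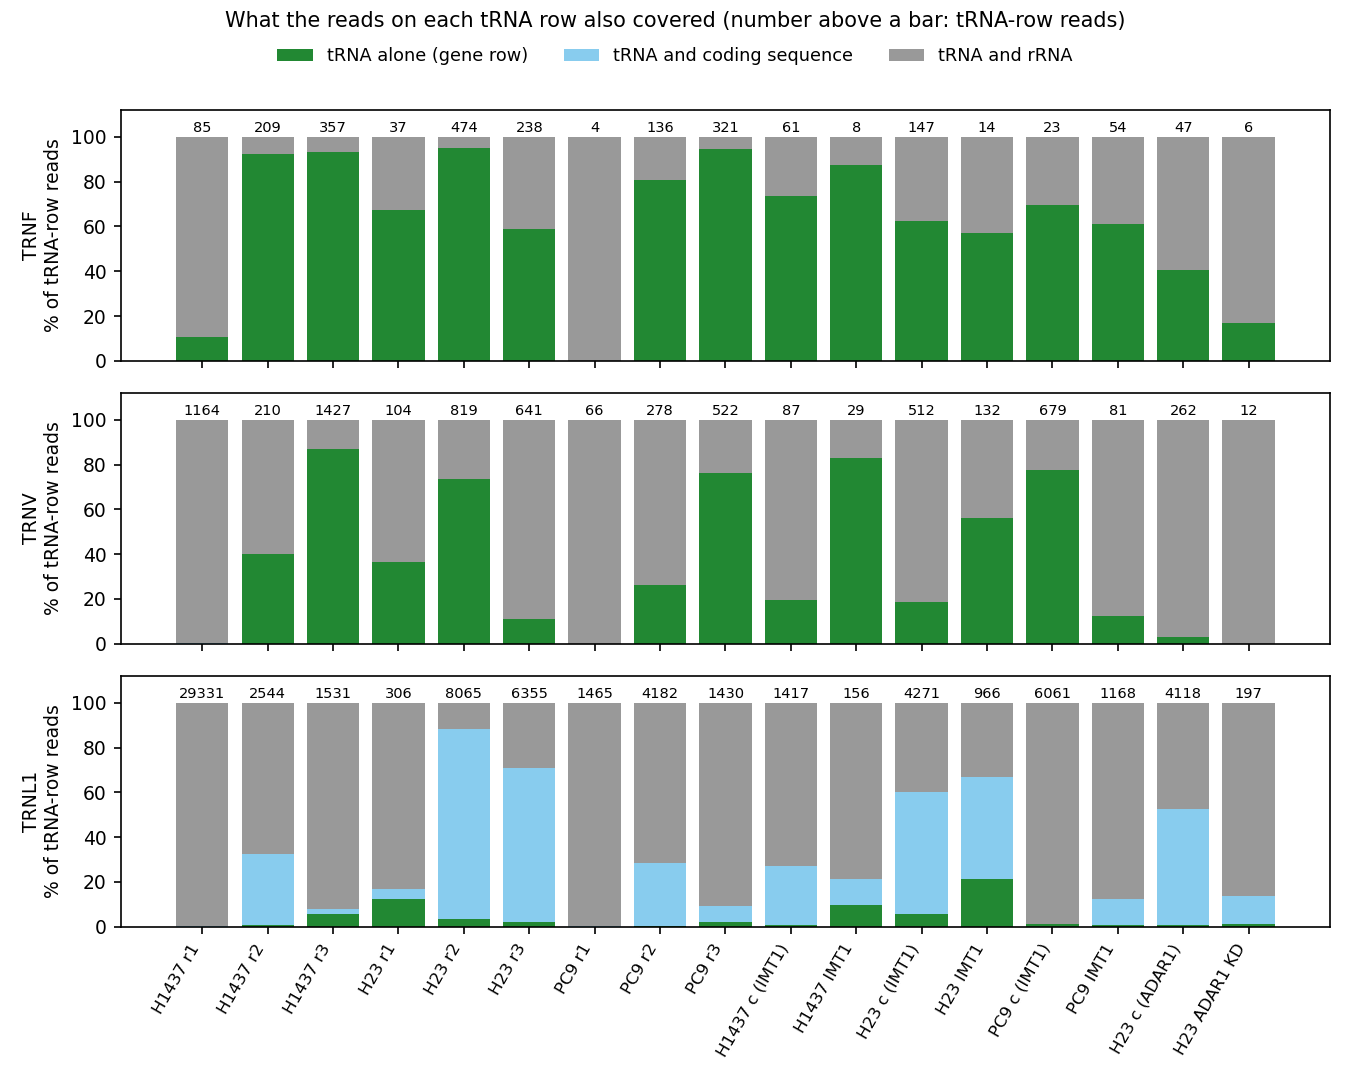
Share of tRNA-row reads that covered the tRNA alone (green), the tRNA and a coding sequence (blue), or the tRNA and an rRNA (gray) in each of the 17 libraries, with the number of reads above each bar. Green includes any TRNF reads that run into the D-loop, and gray any reads that also cover a coding sequence. Libraries are named by line and replicate (r), control (c) of the IMT1 or ADAR1 pair, or treatment. Green fills most TRNF bars outside H1437 r1, PC9 r1, and the ADAR1 pair, and the TRNL1 bars hold gray and blue in proportions that differ between libraries of the same line.

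The reads that ran out of TRNL1 went to RNR2, to ND1, or to both. A read that covers all 3 genes counts here as a read with RNR2 and not as a read with ND1. The ND1 values are therefore lower estimates. Reads with RNR2 made up 99.8%, 67.5%, and 92.3% of TRNL1 reads in H1437, 83.0%, 11.9%, and 29.0% in H23, and 99.7%, 71.5%, and 90.7% in PC9. H23 had the lowest of the 3 values within each replicate number and also among the controls of the IMT1 pairs (73.0% in H1437, 40.1% in H23, and 98.9% in PC9), but H23 replicate 1 lay above H1437 and PC9 replicate 2. Reads with ND1 made up 0.198%, 31.7%, and 2.16% in H1437, 4.58%, 84.9%, and 69.0% in H23, and 0.273%, 28.0%, and 7.41% in PC9. Replicate 2 held the largest ND1 share of each line. Neither share differed between lines beyond the spread of the replicates by the exact permutation test of F (P = 0.111 and 0.179, adjusted P = 1 for both over 28 shares of this kind, of which 0% passed before or after adjustment).

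In RPM, TRNL1 reads with RNR2 spanned a narrower range than those with ND1. Those with RNR2 ranged from 1592 to 5465 in the 9 untreated libraries, with means of 3331 ± 1284 (H1437), 2261 ± 777 (H23), and 3391 ± 1881 (PC9) over 3 libraries each (± SD). Those with ND1 ranged from 7.98 to 11386, with means of 530 ± 867, 6299 ± 5715, and 764 ± 1192 (SD, n = 3). The 2 high TRNL1 totals of H23 were therefore made up mostly of reads with ND1 (11386 and 7396 RPM in replicates 2 and 3). On the ND1 side, the reads shared with TRNL1 but not with RNR2 amounted to 3.81% to 86.5% of the reads on the ND1 coding row (median 45.3%).

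Relative to the rRNAs, reads passed the 3′ end of RNR2 into TRNL1 far more often than they passed any of the other borders. In the 9 untreated libraries, reads over the border of RNR2 and TRNL1 made up 10.4% to 31.2% of the RNR2 rRNA-row reads (median 22.7%). Reads over the border of TRNF and RNR1 made up 0.0987% to 0.526% of the RNR1 rRNA-row reads (median 0.266%). Those over the border of RNR1 and TRNV made up 0.548% to 1.53% of RNR1 reads (median 0.841%), and those over the border of TRNV and RNR2 made up 0.363% to 1.55% of RNR2 reads (median 0.927%). The ranges of the RNR2 and TRNL1 border and of the other 3 borders did not overlap.

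**Figure D3:**
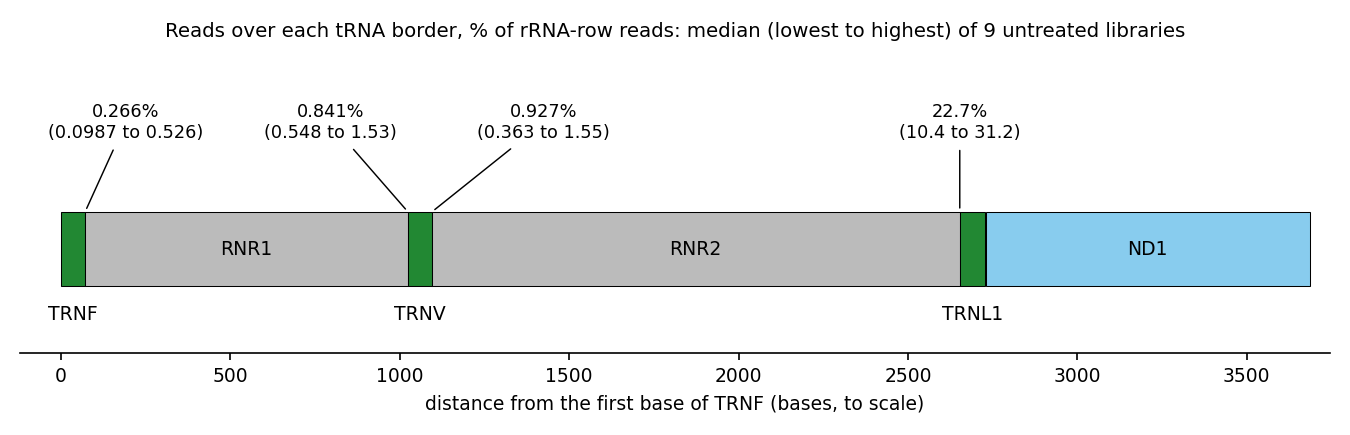
Map of the region to scale (bases from the first base of TRNF), with the 3 tRNA genes in green, the rRNA genes in gray, and ND1 in blue. Above each border stands the percentage of rRNA-row reads that cross it, as the median and range of the 9 untreated libraries. The median is 22.7% at the border of RNR2 and TRNL1 and below 1% at the other 3.

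Within libraries, the RNR2 and TRNL1 border exceeded the border of TRNF and RNR1 by a mean log2 ratio of 6.17 (23.9-fold to 316-fold), that of RNR1 and TRNV by 4.35 (8.52-fold to 49.4-fold), and that of TRNV and RNR2 by 4.46 (6.68-fold to 85.9-fold). Each of these differences held in 9 of 9 untreated libraries and gave P = 0.0039 in the exact two-sided sign-flip test, the smallest that 9 libraries allow. In the 17 libraries together each held in 17. Without replicate 1 of the 3 lines the folds were 53.3, 18.3, and 19.1 (exact P = 0.0313 each). The TRNF and RNR1 border was lower than both TRNV borders in 9 of 9 untreated libraries (exact P = 0.0039 each). The difference was 3.54-fold against the RNR1 side (1.125-fold to 12.25-fold) and 3.27-fold against the RNR2 side (1.78-fold to 5.72-fold). In the 17 libraries together it held in 17 against the RNR1 side and in 16 against the RNR2 side. The exception was the ADAR1 KD library (1.54% at the TRNF border against 0.373%). The 2 borders of TRNV did not differ from each other beyond the spread (0.924-fold, 0.301 to 2.11, exact P = 0.719). These were 6 comparisons between 4 borders, chosen after the values had been seen, and their P values are not adjusted. A read that covers an rRNA whole and both flanking tRNAs crosses 2 borders but counts only at the TRNV border. This lowers the value of the other border, and how far it shifts the differences between borders was not tested. A read that covers RNR2, TRNL1, ND1, and the tRNA behind ND1 counts at the TRNV and RNR2 border. It does not cross that border and raises its value. A read that covers TRNV and both rRNAs is on no rRNA row. It counts at neither TRNV border, which lowers both values. By this reading the RNR1-side value is a lower estimate, and the RNR2-side value is neither an upper nor a lower one. In H1437 replicate 3, 184 TRNV reads covered an rRNA, against 27 counted on the RNR1 side and 120 on the RNR2 side. In H23 replicate 1 there were 66 such reads, against 28 and 38. The other 2 borders leave out reads that cover 2 tRNAs. Each percentage also depends on how long the reads are, which the counts do not give.

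**Figure D4:**
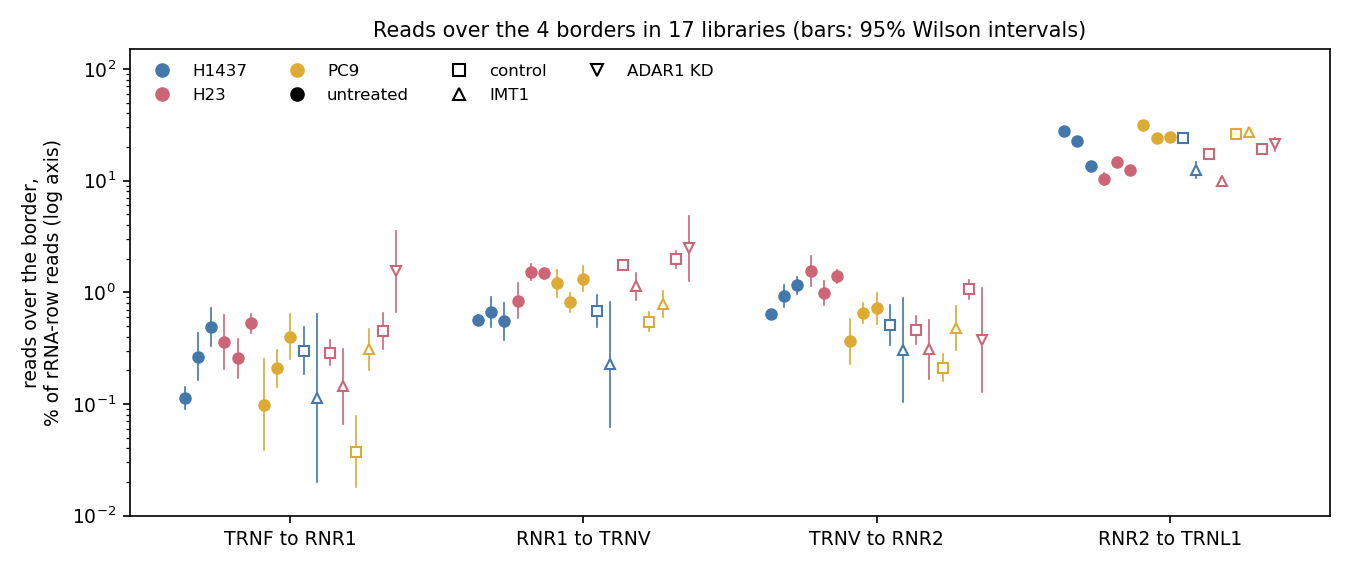
Reads over each of the 4 borders as a percentage of the reads on the neighboring rRNA row (log axis) in 17 libraries, with 95% Wilson intervals that cover counting error only. Color marks the line and shape the condition. All 17 values at the border of RNR2 and TRNL1 (9.88% to 31.2%) lie above all values at the other borders, of which 2.47% was the highest.

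Between lines, the share of RNR2 reads that ran into TRNL1 was 27.9%, 22.7%, and 13.6% in H1437, 10.4%, 14.7%, and 12.6% in H23, and 31.2%, 23.8%, and 24.4% in PC9. The H23 values lay below all PC9 values and overlapped those of H1437 through its replicate 3. The mean of the H1437 libraries was 21.4% ± 7.24, that of H23 12.5% ± 2.2, and that of PC9 26.5% ± 4.10 (SD, n = 3). The exact permutation test of F gave P = 0.0536, and P = 0.0278 with lines permuted only within replicate numbers, the smallest that test allows. Without replicate 1 of the 3 lines the exact P was 0.2. With the IMT1 controls added, the 4 H23 values (10.4% to 17.2%) still lay below the 4 PC9 values (23.8% to 31.2%, exact P = 0.0286, the smallest possible for 4 against 4). The share of RNR2 reads over the TRNV border averaged 0.910% ± 0.257 (H1437), 1.31% ± 0.293 (H23), and 0.578% ± 0.188 (PC9) over 3 libraries each (SD, exact P = 0.05). For the RNR1 and TRNV border the means were 0.593% ± 0.0628, 1.28% ± 0.384, and 1.11% ± 0.269 (exact P = 0.0714), and for the TRNF and RNR1 border 0.289% ± 0.188, 0.381% ± 0.136, and 0.236% ± 0.154 (exact P = 0.529). With lines permuted within replicate numbers, the exact P was 0.0278 for the TRNV and RNR2 border as well, 0.139 for the RNR1 and TRNV border, and 0.0833 for the TRNF and RNR1 border. Without replicate 1 these 3 borders gave exact P values of 0.267, 0.0667, and 0.733. Of 4 libraries against 4, H1437 and H23 also gave the smallest possible exact P of 0.0286 at the RNR1 and TRNV border. None of these tests is adjusted, so none is a call over all features.

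TRNV is the only one of the 3 tRNAs with an rRNA on both sides. The RNR2-side percentage exceeded the RNR1-side percentage in 3 of 3 H1437 libraries, 1 of 3 H23 libraries, and 0 of 3 PC9 libraries. The log2 ratio of the 2 sides did not differ between lines beyond the spread (exact P = 0.0857). In the controls of the IMT1 pairs the RNR2 side was lower in all 3 lines, with log2 ratios of -0.41 in H1437, -1.94 in H23, and -1.37 in PC9.

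No member passed the adjusted threshold of 0.05 in the comparison of cell lines. By the exact permutation test of F, tRNA-row RPM gave P = 0.454 for TRNF, 0.536 for TRNV, and 0.286 for TRNL1 (adjusted P = 0.616, 0.626, and 0.418). Of the 38 coding, rRNA, tRNA, and D-loop rows tested, 0% passed after adjustment and 34.2% had an unadjusted P below 0.05, and in 31.6% every H23 library lay above every other. None of the 3 tRNAs was among either. The ratio of the tRNA row to the neighboring rRNA row gave an exact P of 0.893 for TRNF to RNR1, 0.832 for TRNV to RNR1, 0.657 for TRNV to RNR2, and 0.682 for TRNL1 to RNR2, and 0% of 34 ratios had an unadjusted P below 0.05. The gene-row share gave an exact P of 0.914 for TRNF, 0.921 for TRNV, and 0.3 for TRNL1, where 3.23% of 31 shares had an unadjusted P below 0.05 and 0% an adjusted one. Without replicate 1 of the 3 lines, the exact P of every one of these levels, ratios, and shares of the 3 tRNAs was 0.2 or higher.

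Reads on TRNL1 alone came closest to a difference between lines. Its gene row held 0, 37.9, and 125 RPM in H1437, 311, 427, and 214 in H23, and 0, 34.7, and 37.3 in PC9. The 0 in H1437 replicate 1 allows up to 0.477 RPM and that in PC9 replicate 1 up to 5.99, at 3 reads each. Every H23 library lay above every H1437 and PC9 library, which was also the case for 40.5% of the 37 gene rows. The exact P was 0.0179 and the adjusted P 0.0881 over 37 gene rows, of which 0% passed after adjustment and 43.2% had an unadjusted P below 0.05. With lines permuted within replicate numbers the exact P was 0.0556 (adjusted P = 0.206), and without replicate 1 of the 3 lines it was 0.0667 (adjusted P = 0.352). With the 4 control libraries added, TRNL1 passed (adjusted P = 0.0166, 13 libraries), as did 43.2% of the gene rows. On a log2 scale of RPM plus 1, the exact P was 0.132 (adjusted P = 0.335). Relative to mapped reads, the exact P was 0.211. The mapped share of the library moved in the same direction, at 11.0% to 24.4% in untreated H23 against 1.89% to 7.45% in the untreated libraries of the other lines, and its part in the result was not tested. TRNF and TRNV gene rows gave exact P values of 0.664 and 0.85, and their highest values, 750 in H23 replicate 2 and 1834 in H1437 replicate 3, came from single libraries.

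In the edgeR quasi-likelihood test of gene-row counts, 0% of 35 genes passed in each of the 3 contrasts between lines, and 0 genes had an unadjusted P below 0.05. For TRNL1 the log2 fold change was 0.42 ± 1.79 (SE) for H23 over H1437 (adjusted P = 0.899) and 1.61 ± 1.85 for H23 over PC9 (adjusted P = 0.873). For TRNV it was -2.95 ± 2.38 for H23 over H1437 (adjusted P = 0.548), and for TRNF -1.70 ± 1.70 (adjusted P = 0.6). The TRNF direction turned with total reads as library size (0.47 for H23 over H1437), where TRNV stayed at -0.48. With the replicate number as a block, TRNV turned to 1.5 and TRNF to 0.46. DESeq2 called 4 genes for H23 over H1437, 2 for H23 over PC9, and 0 for PC9 over H1437, none of them TRNF, TRNV, or TRNL1. With H1437 and PC9 fitted alone and the replicate number as a block, edgeR called 10 of 35 genes, and TRNF, TRNV, and TRNL1 were not among them (adjusted P = 0.452, 0.273, and 0.273).

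With IMT1, TRNV and TRNL1 tRNA-row reads were lower than in the control library of the same line in 3 of 3 lines, and TRNF in 2 of 3. TRNL1 stood at 3081 RPM in the control and 329 with IMT1 in H1437, at 7742 and 1606 in H23, and at 8975 and 2284 in PC9. The log2 ratios were -3.23, -2.27, and -1.97 (mean -2.49, exact P = 0.25). TRNV stood at 189 and 61.2 in H1437, at 928 and 219 in H23, and at 1005 and 158 in PC9, with log2 ratios of -1.63, -2.08, and -2.67 (mean -2.13, exact P = 0.25). TRNF stood at 133 and 16.9 in H1437, at 266 and 23.3 in H23, and at 34.1 and 106 in PC9, with log2 ratios of -2.97, -3.52, and 1.63 (mean -1.62, exact P = 0.5). A sign-flip test of 3 pairs cannot give a P below 0.25. The TRNF values with IMT1 rest on 8, 14, and 54 reads.

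Of the 37 coding, rRNA, tRNA, and D-loop rows with reads in all 6 libraries, 35.1% were lower with IMT1 in all 3 lines. The median log2 ratio of those rows was -1.62 in H1437, -1.37 in H23, and 0.12 in PC9. Among the 22 tRNA rows, 7 were lower in all 3 lines, and TRNL1 had the second-lowest and TRNV the third-lowest mean log2 ratio, after TRNS2 (-3.10), while TRNP had the highest (0.69). Relative to mapped reads the mean log2 ratio was -0.95 for TRNL1, -0.59 for TRNV, and -0.08 for TRNF. The TRNL1 value with IMT1 was lower than each of the 4 untreated and control values of its line except in PC9, where it lay among them, and the same was the case for TRNV.

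Most TRNL1 reads in the control libraries ran into a neighbor, so most of the difference with IMT1 had to lie in such reads. The gene row held 0.917% of the TRNL1 reads in the control of H1437, 5.69% in that of H23, and 1.01% in that of PC9. TRNL1 reads with RNR2 stood at 2248 RPM in the control and 259 with IMT1 in H1437, at 3102 and 532 in H23, and at 8876 and 1998 in PC9. Those with ND1 but not RNR2 stood at 804 and 38.0 in H1437 and at 4200 and 731 in H23. In PC9 they went the other way, at 8.88 and 268. Gene-row reads stood at 28.3 and 31.6 in H1437, at 440 and 342 in H23, and at 90.3 and 17.6 in PC9. The gene row was thus lower in 2 of 3 lines (mean log2 ratio -0.85, exact P = 0.5), where 24.2% of the 33 gene rows with reads in all 6 libraries were lower in all 3. The share of RNR2 reads that ran into TRNL1 was 24.0% in the control and 12.5% with IMT1 in H1437, 17.2% and 9.88% in H23, and 25.9% and 27.3% in PC9 (exact P = 0.5). In the edgeR test with cell line as a block, 0% of 33 gene rows passed, 2 had an unadjusted P below 0.05, and DESeq2 called 3, none of them TRNF, TRNV, or TRNL1. The log2 fold changes were -1.32 ± 1.27 for TRNF, -0.70 ± 1.25 for TRNV, and -0.34 ± 1.29 for TRNL1 (SE, adjusted P = 0.972 each).

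**Figure D5:**
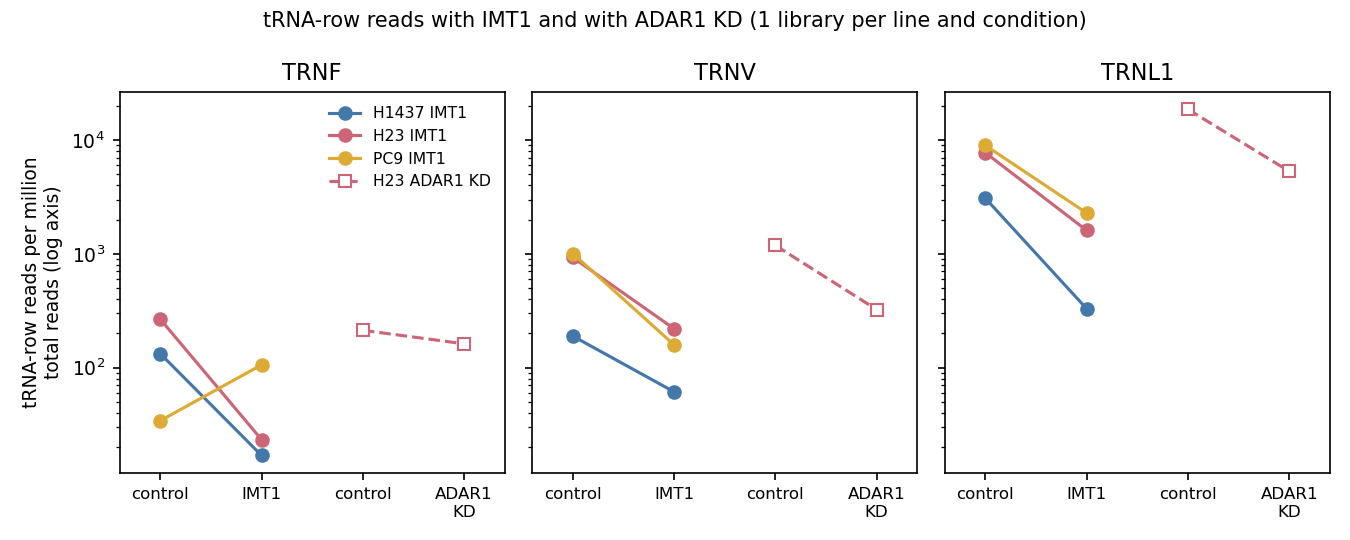
tRNA-row reads per 1000000 total reads (log axis) in the control and treated library of each pair, with 1 library per point. Solid lines join the IMT1 pairs of the 3 lines and the dashed line the ADAR1 pair of H23. TRNV and TRNL1 are lower in the treated library of each pair, and TRNF is higher in the treated PC9 library (106 against 34.1).

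With ADAR1 KD there was 1 library per group and no test was possible. TRNL1 tRNA-row reads stood at 18620 RPM in the control and 5308 with ADAR1 KD, TRNV at 1185 and 323, and TRNF at 213 and 162. The log2 ratios were -1.81 (95% counting interval -2.02 to -1.60), -1.87 (-2.71 to -1.04), and -0.39 (-1.62 to 0.83). Of 35 coding, rRNA, tRNA, and D-loop rows, 97.1% were lower by 2-fold or more, with a median log2 ratio of -2.57, so that each of the 3 tRNAs was lower by less than the median row. Relative to mapped reads the log2 ratios were 0.29, 0.22, and 1.70, against a median of -0.47. The KD library held 37113 total reads, 6 reads on TRNF, 12 on TRNV, and 197 on TRNL1, with 11.0% of its reads mapped against 47.2% in the control. Gene-row counts were 1, 0, and 2, and the 0 for TRNV allows up to 80.8 RPM. TRNL1 reads with RNR2 made up 47.5% of TRNL1 reads in the control and 86.3% with ADAR1 KD (95% Wilson interval 80.8% to 90.4%). The 3 untreated H23 libraries ranged from 11.9% to 83.0%. ADAR itself is not a mitochondrial gene and could not be checked in these counts.

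The gene rows whose levels across the 17 libraries were most like those of each member were found by Spearman correlation of gene-row RPM. For TRNF they were TRNS2 (rho = 0.911), TRNK (0.865), and TRNH (0.791). For TRNV they were TRNH (0.966), TRNM (0.912), and TRNE (0.856). For TRNL1 they were TRNY (0.801), TRNT (0.784), and ATP6 (0.781). No member was among the 3 most alike of another member. The libraries share lines, replicate numbers, and the low gene rows of replicate 1, so these values describe likeness over these 17 libraries and were not tested.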

How the data were processed

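The authors used minimap2 2.17-r941 and SAMtools 1.10, per the submitters' processing notes, to align nanopore reads to no other reference than the mitochondrial genome, and counted them with featureCounts. The deposited values are raw read counts per annotated feature, with a minimum overlap of 6 bases per the study's methods. Whether reads over several features were counted is stated in different ways there, so the meaning of the row kinds was read from the counts themselves. Reads that come from nuclear copies of mitochondrial DNA were not set apart. PCR reads carry no molecular identifiers, so intervals (95%, Wilson) and floors (3 reads) cover counting error only.

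Counts were divided by the total reads of each library. Cell lines were compared with a two-sided exact permutation test of F (smallest P 0.0036) and libraries or pairs with exact sign-flip tests. P values were adjusted by Benjamini-Hochberg over all features of a kind, with a threshold of 0.05. Gene-row counts were also fitted with edgeR 4.0.16 (TMM, quasi-likelihood, at least 10 counts in 3 libraries) in R 4.3.3, with DESeq2 1.42.0 as an alternative. Python 3.11.15, NumPy 2.4.6, and pandas 2.3.3 were used for the rest. The scripts were tested on simulated data.

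The 3 tRNAs are named throughout, with their neighbors RNR1, RNR2, and ND1 where a value needs them, the 3 gene rows with the highest Spearman correlation per member, and the highest or lowest tRNA beside a rank. The members and lists were chosen with earlier results of these data known. Deviations from the line mean over the 37 gene rows correlated positively between H1437 and PC9 libraries of the same number (r = 0.912, 0.753, and 0.932). With H23, r ranged from -0.745 to 0.175 and was inverse in replicate 3 (-0.733 with H1437 and -0.745 with PC9). The replicate number was therefore used as a block only as an alternative. The other alternatives were other denominators, scales, library sets, row kinds, filters, and leaving out each replicate or line.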

Additional observations from a re-analysis of the deposited data

Results flagged for a closer look

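Of 60 groups of 4 or 5 untreated and control libraries of 1 line, 12 held a library far from the others. Chance is set to give about 1 in 20 for independent groups, but the 12 come from 3 libraries and overlapping measures of the same reads, so that rate does not carry over to them. H1437 replicate 3 stood apart for TRNV, with 2105 tRNA-row RPM (reads per 1000000 total reads) (others 184.9 to 398.4), 1834 gene-row RPM (0 to 159.4), 28.96 reads per 100 RNR1 reads (1.637 to 3.488), and 13.77 per 100 RNR2 reads (1.111 to 2.78). Its gene-row share of TRNL1 was 5.552% (others 0% to 0.9174%). H23 replicate 2 stood apart with 749.6 TRNF gene-row RPM (others 85.91 to 236.3) and 998.9 for TRNV (36.17 to 310.7). In the same library TRNF had 5.272 reads per 100 RNR1 reads (others 0.7597 to 1.276), TRNV 9.109 per 100 RNR1 reads (2.687 to 4.235) and 12.57 per 100 RNR2 reads (2.571 to 5.145), and TRNL1 123.8 per 100 RNR2 reads (12.49 to 43.27). PC9 replicate 3 stood apart with 7.589 TRNF reads per 100 RNR1 reads (others 0.09867 to 1.091).

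For 11 of 13 measures, the log2 ratio of IMT1 to control in 1 line had the opposite sign of both other lines, with 1 pair per line, so that the difference between lines was not tested. PC9 was the odd line for the TRNF tRNA row (1.63 against -3.52 and -2.97) and gene row (1.45 against -3.65 and -2.73). It was also the odd line for the gene-row share of TRNV (-2.66 against 1.60 and 2.08) and of TRNL1 (-0.39 against 1.91 and 3.39). The ratios to the rRNA row set PC9 apart for TRNF to RNR1 (2.69 against -1.20 and -0.34), TRNV to RNR1 (-1.61 against 0.24 and 1.01), and TRNL1 to RNR2 (0.25 against -1.05 and -0.53). H1437 was the odd line for the gene row of TRNV (0.45 against -5.32 and -0.49) and of TRNL1 (0.16 against -2.36 and -0.36), the gene-row share of TRNF (0.25 against -0.19 and -0.13), and the ratio of TRNV to RNR2 (0.55 against -0.44 and -0.34).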

How the results depend on the processing

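Of the alternatives to counts and main values, 121 stayed within the limits set for them and 25 moved. For the comparison of lines, adding the 4 control libraries raised the calls from 0 to 15 of the 38 coding, rRNA, tRNA, and D-loop rows, 16 gene rows, and 1 share, and without the ADAR1 control the first 2 were 21 and 21. The pairs of tRNAs called fell to 0 for both measures when any 1 line was left out, where the 6 remaining libraries cannot give an unadjusted P below 0.0313. Without replicate 1 of all 3 lines, which was chosen after seeing the data, 160 pairs were called by share and 0 per base. Rows lower with IMT1 in all lines numbered 20 of the 37 coding, rRNA, tRNA, and D-loop rows and 15 gene rows against all untreated and control libraries, 4 and 2 relative to mapped reads, 28 and 22 without PC9, and 13 on gene rows without H1437. With ADAR1 KD, 8 rows were lower by 2-fold or more relative to mapped reads, and TRNV and TRNL1 turned to 0.22 and 0.29. DESeq2 called 4 genes for H23 over H1437, 2 for H23 over PC9, and 3 with IMT1. The replicate block in H1437 and PC9 alone called 10 genes, also chosen after seeing the data.

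Directions of values that passed no test also turned. With IMT1, the log2 ratio of the TRNL1 gene row was 0.69 relative to mapped reads, and against all untreated and control libraries the shares of TRNF and TRNV were 0.019 and -0.0030 and the ratio of TRNF to RNR1 was -1.95. Leaving out 1 line moved the share between -0.16 and 0.057 for TRNF and between -0.53 and 1.84 for TRNV. It moved the ratio between -0.77 and 1.2 for TRNF to RNR1, between -0.69 and 0.62 for TRNV to RNR1, and between -0.39 and 0.11 for TRNV to RNR2. By DESeq2, H23 over H1437 was -0.96 for TRNL1. In edgeR, H23 over H1437 was 0.47 for TRNF with total reads, -2.09 for TRNL1 on tRNA rows, and 0.46 for TRNF and 1.5 for TRNV with the replicate block. H23 over PC9 was 0.94 for TRNF and 1.06 for TRNV with total reads, -2.12 for TRNL1 on tRNA rows, and 0.80 and 2.20 for TRNF and TRNV with the replicate block. PC9 over H1437 was 0.030 for TRNL1 on tRNA rows. Leaving out 1 replicate gave H23 over H1437 between -0.18 and 2.74 for TRNL1 and between -3.53 and 1.03 for TRNV. It gave H23 over PC9 between -1.95 and 0.19 for TRNF and between -1.93 and 0.99 for TRNV. It gave PC9 over H1437 between -1.89 and 0.94 for TRNF, between -3.94 and 2.40 for TRNV, and between -1.98 and 1.13 for TRNL1. Leaving out 1 line gave edgeR's IMT1 value between -2.34 and 0.94 for TRNV and between -0.94 and 0.88 for TRNL1. The cause was not tested for any of these. The gene row as numerator of the ratio to rRNA was not run, since rows at 0 have no ratio. Counts of 0 to 9 on the gene rows of the 3 tRNAs in replicate 1 of H1437 and PC9 and in the ADAR1 KD library limit every value that rests on them.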
